A study of Ovis aries with 16 samples.

Results

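Muscle of female sheep exposed to testosterone before birth (prenatal T) was compared with muscle of control females, in 4 classes of non-coding RNA. The comparison used the 8 muscle libraries of the 16 in the study, chosen by tissue and treatment label. The control group was ewes 98, 131, 132 and 201, labelled control, and the exposed group was ewes 48, 185, 233 and 255, labelled prenatal T, with 1 library per ewe. All 8 animals were female, and total RNA was taken with Trizol and made into libraries with a small RNA kit from NEBNext. The dose, the time in gestation, the age at sampling, the breed and the muscle sampled are not stated by the labels. The question, from the title of the study, was how an excess of testosterone before birth alters the non-coding RNAs of a metabolic tissue.

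MicroRNAs (miRNAs) are short RNAs that guide a silencing complex to messenger RNAs with which they pair. Small nucleolar RNAs (snoRNAs) are mostly cut from introns of host genes and guide chemical modification of ribosomal RNA, and small nuclear RNAs (snRNAs) are parts of the spliceosome that removes introns. Long non-coding RNAs (lncRNAs) are long transcripts without a protein product, and a small RNA library samples only short pieces assigned to their genes. Skeletal muscle takes up much of the glucose cleared under insulin, and insulin resistance is a known feature of sheep exposed to testosterone before birth.

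The deposited values, here called normalised reads, had been scaled by the authors within each class, and whole reads could be recovered from them. A read may be counted in more than a single class. The lncRNA LOC114118399 and MIR125B each held 87775 reads over the 8 muscle libraries. Sums over the 4 classes may therefore hold the same reads more than once. The 8 libraries held 239871 to 1819374 reads summed over the 4 classes, with ewe 255 the lowest and ewe 48 the highest. Of these, 113522 to 885316 per library were miRNA reads, 2180 to 5766 snoRNA reads, 200 to 1740 snRNA reads and 122749 to 926854 lncRNA reads. A feature was tested when its mean over the 8 libraries was at least 5 normalised reads, which left 64 of 105 miRNAs, 110 of 694 snoRNAs, 28 of 1148 snRNAs and 3.83% of 2973 lncRNAs. Fold changes are on the log2(value + 1) scale, prenatal T over control, so they understate changes of low features. The test was limma within each class, with p-values adjusted by the Benjamini-Hochberg method (BH) and a threshold of 0.05.

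The library of ewe 255 stood apart from the other 7. It alone carried a library number far from the others, which ran from 57 to 63. It was the highest or the lowest of the 8 libraries for 43 of the 64 miRNAs (67.2%), 73 of the 110 snoRNAs (66.4%) and 71 of the lncRNAs tested (62.3%). Each of the other libraries was an extreme for 4.69% to 28.1% of miRNAs, 10.9% to 27.3% of snoRNAs and 13.2% to 22.8% of lncRNAs. Among the 28 snRNAs the order was different: control ewe 132 was an extreme for 75% and prenatal T ewe 185 for 46.4%, against 25% for ewe 255. With 1 such library, its number, its depth and the ewe herself cannot be told apart, so the tests of single features and most summaries in muscle are given also without ewe 255.

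**Figure D1:**
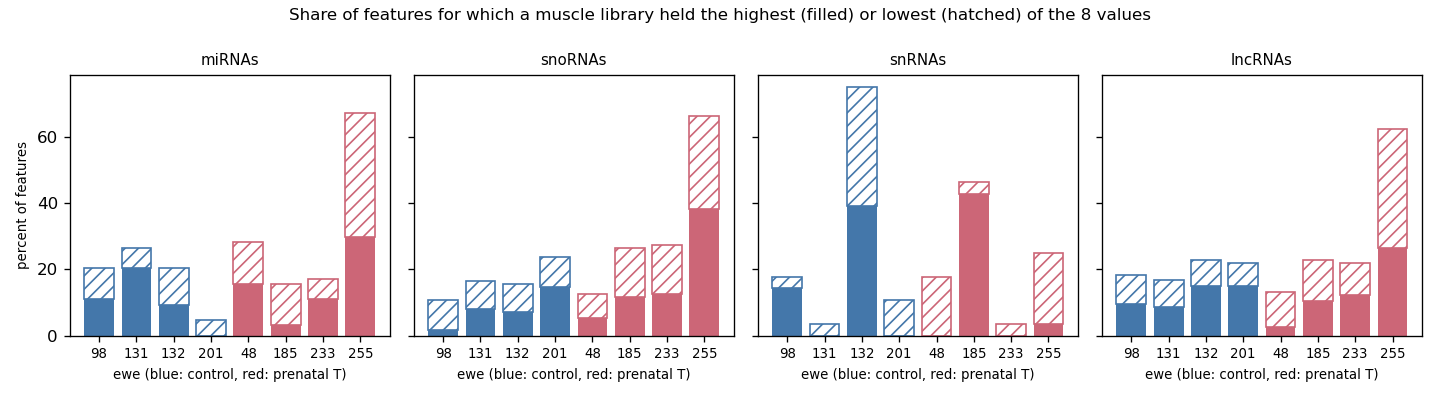
Share of tested features (percent, y axis) for which each of the 8 muscle libraries (x axis) held the highest or the lowest value, for 4 RNA classes. Ewe 255 reaches 67.2% of miRNAs, 66.4% of snoRNAs and 62.3% of lncRNAs, while control ewe 132 reaches 75% of snRNAs.

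MIR133, a miRNA family characteristic of striated muscle, led the miRNA class in every library. It took 54.3%, 50.9%, 50.0% and 54.8% of miRNA reads in control ewes 98, 131, 132 and 201, and 54.2%, 53.5%, 56.4% and 37.2% in prenatal T ewes 48, 185, 233 and 255. The share in ewe 255 lay below all others, and the other 7 overlapped. Normalised MIR133 did not pass the test (log2 fold change -0.17, SE 0.21, limma BH-adjusted p = 0.788; without ewe 255 0.10, SE 0.08, limma BH-adjusted p = 0.934). The lncRNA LOC105604459, which lies in the MIB1 gene in the RefSeq annotation, followed MIR133 closely: its reads were 1.06 to 1.10 times those of MIR133 in the 8 libraries. LOC105603743, the next lncRNA, gave 0.566 to 0.788 times the MIR133 reads in 7 libraries and 1.49 times in ewe 255.

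The share of reads taken by a class did not pass the test in any of the 4 classes. A read assigned to more than a single class enters the share of each, so the miRNA and lncRNA shares are not separate measures. MiRNAs made up 50.0% ± 1.34 of the reads in control muscle and 48.2% ± 0.710 in prenatal T muscle (SD, n = 4 each; two-sided exact permutation p = 0.0857, BH-adjusted over the 4 classes 0.229). LncRNAs made up 49.5% ± 1.40 and 51.1% ± 0.418 (exact permutation p = 0.114, adjusted 0.229). With 70 assignments of the ewes to groups, the smallest p the test can give is 0.0286. SnRNAs made up 0.128% ± 0.0646 and 0.0786% ± 0.0141 (exact permutation p = 0.286, adjusted 0.381). The snoRNA share was 0.386%, 0.376%, 0.339% and 0.267% in the controls, in the order of ewes 98, 131, 132 and 201 that is kept from here on. In the prenatal T ewes 48, 185, 233 and 255, an order also kept, it was 0.317%, 0.234%, 0.262% and 1.42%. Ewe 255 alone was high, and the difference of 0.216 percentage points (exact permutation p = 0.971) became -0.0708 without this library (exact permutation p = 0.114, adjusted 0.229). Without ewe 255 the miRNA share differed by -1.50 points (exact permutation p = 0.171), the lncRNA share by 1.62 points (exact permutation p = 0.171) and the snRNA share by -0.0510 points (exact permutation p = 0.343).

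In prenatal T muscle 4 lncRNAs fell and none rose. These 4 were 3.51% of those tested by limma with BH adjustment, and the same number and share passed without ewe 255. The count tests on recovered reads called 4 lncRNAs with edgeR and 5 with DESeq2. The median absolute log2 fold change over the class was 0.29, and 49 lncRNAs had a higher and 65 a lower mean in prenatal T muscle, and 50 and 64 without ewe 255. What these 4 lncRNAs do is not known from the labels or the annotation. In bulk tissue, fewer cells of a type and less RNA per cell cannot be told apart, here and in every comparison that follows.

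LOC114118460, which is absent from the annotation used here, gave 45.4, 75.6, 43.7 and 40.6 normalised reads in the controls. In prenatal T muscle it gave 14.2, 9.18, 9.27 and 12.2. The lowest control stood well above the highest exposed ewe, and ewe 255 lay within its group. It fell with a log2 fold change of -2.07, SE 0.30, limma BH-adjusted p = 0.00378, and without ewe 255 the log2 fold change was -2.12, SE 0.29, limma BH-adjusted p = 0.00125. Leaving out each of the 8 libraries in turn kept the log2 fold change between -2.19 and -1.88 and the adjusted p between 0.00125 and 0.0173, so no single ewe carried the call. It rested on few reads, 52, 86, 51 and 35 in the controls and 32, 9, 9 and 5 in the prenatal T ewes.

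LOC114112617, also absent from the annotation, was one of the 5 most abundant lncRNA features, with 5759.6, 4955, 16270.2 and 10284 normalised reads in the controls. It gave 2341, 3247, 1478 and 1066 in the prenatal T ewes. No exposed ewe reached the lowest control, and ewes 132 and 201 were far above the other controls. It fell with a log2 fold change of -2.16, SE 0.43, limma BH-adjusted p = 0.0269, and without ewe 255 the log2 fold change was -1.89, SE 0.38, limma BH-adjusted p = 0.022. LOC114113790, which lies between HES1 and OPA1, gave 1638, 1947, 6153 and 4641 in the controls and 915, 1239, 531 and 420.4 in the prenatal T ewes. Its ewes fell in nearly the same order, again with ewes 132 and 201 highest and ewe 255 lowest. It fell with a log2 fold change of -2.12, SE 0.47, limma BH-adjusted p = 0.0354, and without ewe 255 the log2 fold change was -1.87, SE 0.44, limma BH-adjusted p = 0.0351.

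These 2 lncRNAs moved as a pair from ewe to ewe. The ratio of LOC114113790 to LOC114112617 reads was 0.284 to 0.451 over the 8 libraries. After the group means were removed, their log2 values had a correlation of 0.97 over the 8 libraries, given as a description. LOC114118460 did not follow them, with correlations of -0.40 with LOC114113790 and -0.48 with LOC114112617 over the same libraries. Whether the 2 features share reads was not tested.

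LOC105607806 lies between ALOXE3 and PER1 and holds a glycine tRNA gene, TRNAG-GCC, and an snRNA gene, LOC114117043, in the annotation. It gave 21.8, 23.7, 73.8 and 11.6 normalised reads in the controls and 5.78, 5.10, 5.15 and 4.89 in the prenatal T ewes. All 4 exposed ewes sat near 5, below every control, and ewe 132 was far above the other controls. It fell with a log2 fold change of -2.12, SE 0.48, limma BH-adjusted p = 0.0354, and without ewe 255 the log2 fold change was -2.09, SE 0.48, limma BH-adjusted p = 0.0351. It rested on 25, 27, 86 and 10 reads in the controls and 13, 5, 5 and 2 in the prenatal T ewes. The 10 tested lncRNAs that hold a tRNA gene did not share this direction: 6 had a higher and 4 a lower mean, with a median log2 fold change of 0.09, against -0.07 over the class. Without ewe 255 there were 5 of each, with a median of -0.01 against -0.05. The 10 that hold a snoRNA gene had 8 higher and 2 lower means (median 0.27), with ewe 255 the highest library for 7 of them, and 2 higher and 8 lower without her (median -0.22).

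The calls on these last 3 lncRNAs were close to the threshold. Leaving out a single library raised the adjusted p to as much as 0.0866 for LOC114112617, 0.108 for LOC114113790 and 0.111 for LOC105607806 in limma with BH adjustment, with every log2 fold change at or below -1.63. The calls fell from 4 to 1 without ewe 132, 48 or 233 and to 2 without ewe 131 or 201. With a single spread estimated over all 16 libraries of the study there were 0 calls, with LOC114118460 at an adjusted p of 0.527, and without the variance trend there was 1.

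The next 2 lncRNAs by p also separated the groups without passing the test. LOC114112974 gave 429, 276, 1060.3 and 226 in the controls and 172, 152, 149 and 129.5 in the prenatal T ewes. Every control was above every exposed ewe, and ewe 132 was again the highest (log2 fold change -1.45, SE 0.42, limma BH-adjusted p = 0.144; DESeq2 BH-adjusted p = 0.0101). Without ewe 255 it was -1.38, SE 0.42, limma BH-adjusted p = 0.168. LOC114115731 went the other way, with 4.36, 8.80, 7.72 and 4.64 in the controls and 9.78, 17.3, 11.3 and 24.4 in the prenatal T ewes (log2 fold change 1.15, SE 0.38, limma BH-adjusted p = 0.235; without ewe 255 0.92, SE 0.34, limma BH-adjusted p = 0.405). In all, 5 lncRNAs (4.39%) were lower without overlap and 1 (0.877%) was higher without overlap, together 5.26%, and 10 (8.77%) did not overlap once ewe 255 was left out. LOC114112974 and LOC105607806 varied together within groups, with a correlation of 0.94 over the 8 libraries.

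**Figure D2:**
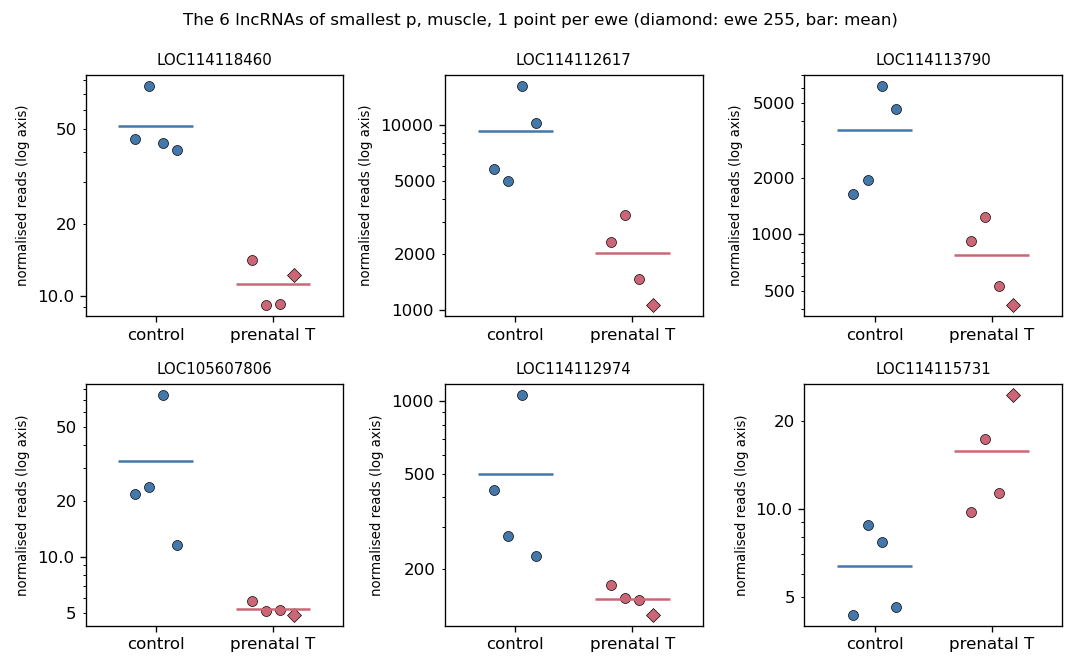
Normalised reads (log y axis) of the 6 lncRNAs of smallest p in muscle of 4 control and 4 prenatal T ewes, with 1 point per ewe, a bar at the mean and a diamond for ewe 255. In the first 5 panels all exposed ewes lie below all controls, and in the panel of LOC114115731 they lie above.

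No snRNA passed the test (0 of 28, or 0%, by limma with BH adjustment), although 15 of them separated the groups. Means were higher without overlap for 8 snRNAs (28.6%) and lower without overlap for 7 (25%), together 53.6%, and 53.6% also without ewe 255. Many snRNA genes are near-identical copies among which short reads cannot be placed, so single members are uncertain. The 28 tested snRNAs held 24 distinct sets of values, and the 15 that did not overlap held 11, of which 5 were higher and 6 lower. At an unadjusted p under 0.05, limma found 5, edgeR 10 and DESeq2 10, and none passed adjustment with any of the 3 tools.

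All 7 tested snRNA copies next to HJV, of 8 in the data, had a lower mean in the exposed ewes. Their median log2 fold change was -0.40 (-0.38 without ewe 255) beside -0.25 over all snRNAs (-0.26 without ewe 255). Without control ewe 132 the median over all snRNAs was -0.03. The group was chosen with earlier results known and holds the snRNAs of smallest p, LOC114111412 and LOC114111395. These gave near-identical values, so the copies are neither separate observations nor separate support. LOC114111412 gave 26.3, 24.5, 41.6 and 27.9 normalised reads in the controls and 18.8, 15.3, 21.9 and 12.8 in the prenatal T ewes. It rested on 45, 27, 68 and 17 reads in the controls and 37, 9, 26 and 4 in the prenatal T ewes. Every exposed ewe was below every control, and ewe 132 was the highest (log2 fold change -0.77, SE 0.22, limma BH-adjusted p = 0.105; without ewe 255 -0.64, SE 0.24, limma BH-adjusted p = 0.12). LOC114117117 had the higher mean in the exposed ewes and gave 30.4, 32.7, 26.3 and 27.9 in the controls and 34.1, 52.6, 34.5 and 35.1 in the prenatal T ewes, where ewe 185 was alone at the top (log2 fold change 0.38, SE 0.19, limma BH-adjusted p = 0.167; without ewe 255 0.43, SE 0.23, limma BH-adjusted p = 0.197).

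The 2 snRNAs near TEX14 and RAD51C, a group also chosen with earlier results known, were lowest in ewe 255. LOC114117093 gave 58.4, 39.9, 85.0 and 42.6 in the controls and 37.7, 27.2, 20.2 and 3.19 in the prenatal T ewes. LOC114117060 gave 64.8, 41.7, 92.3 and 55.7 in the controls and 44.3, 32.2, 22.7 and 3.19 in the prenatal T ewes. Ewe 255 was far below the rest in both, with 1 read each, and ewe 132 was the highest. LOC114117093 had a log2 fold change of -1.64, SE 0.60, limma BH-adjusted p = 0.142, and without ewe 255 the log2 fold change was -0.95, SE 0.29, limma BH-adjusted p = 0.108. For LOC114117060 the groups overlapped between ewes 131 and 48 (log2 fold change -1.66, SE 0.63, limma BH-adjusted p = 0.143; without ewe 255 -0.92, SE 0.31, limma BH-adjusted p = 0.108). LOC114115462, inside the lncRNA gene LOC132659970, gave 23.9, 20.9, 20.2 and 21.3 in the controls and 13.2, 10.2, 17.7 and 16.0 in the prenatal T ewes. It rested on few reads, 41, 23, 33 and 13 in the controls and 26, 6, 21 and 5 in the prenatal T ewes. It was lower in every exposed ewe, with ewe 255 inside its group (log2 fold change -0.59, SE 0.20, limma BH-adjusted p = 0.124; without ewe 255 -0.65, SE 0.26, limma BH-adjusted p = 0.12).

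The size of the snRNA differences depended on the scale. Over all snRNAs 13 had a higher and 15 a lower mean, and 12 and 16 without ewe 255. When reads were divided by the total of the 4 classes in each library, 10 were higher and 18 lower. On that scale the median over all snRNAs became -0.56, that next to HJV -0.71 and that at TEX14 and RAD51C -1.97. The log2 fold change of LOC114117117, 0.38 in normalised reads, shrank to 0.065 on that scale (limma BH-adjusted p = 0.964).

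**Figure D3:**
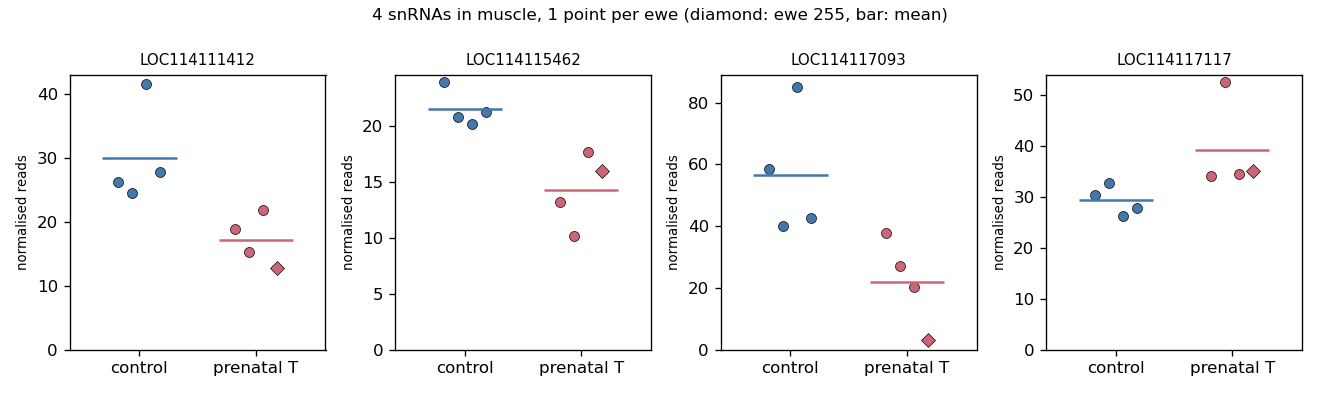
Normalised reads (linear y axis from 0) of 4 snRNAs in muscle of 4 control and 4 prenatal T ewes, with 1 point per ewe, a bar at the mean and a diamond for ewe 255. The first 3 are lower and LOC114117117 is higher in all 4 exposed ewes, and none passed the adjusted test.

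No miRNA passed the test (0 of 64, or 0%, by limma with BH adjustment, and 0 by edgeR and by DESeq2). At an unadjusted p under 0.05 there were 5 by limma, 3 by edgeR and 3 by DESeq2. The median absolute log2 fold change was 0.20, with 27 miRNAs higher and 37 lower in prenatal T muscle, and 34 higher and 30 lower without ewe 255. In 2 miRNAs the groups did not overlap, 1 higher (1.56%) and 1 lower (1.56%), together 3.12%, and 3.12% also without ewe 255.

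MIR10B and MIR10A are encoded in HOX clusters. MIR10B gave 1361, 1356, 1764 and 1567 normalised reads in the controls and 1145, 1133, 1347 and 913 in the prenatal T ewes. All 4 exposed ewes were below all controls, by a narrow margin between ewes 131 and 233 (log2 fold change -0.42, SE 0.16, limma BH-adjusted p = 0.559; without ewe 255 -0.32, SE 0.14, limma BH-adjusted p = 0.934). MIR10A gave 294, 252, 286 and 229 in the controls and 278, 176, 169.6 and 166 in the prenatal T ewes, where ewe 48 lay among the controls (log2 fold change -0.45, SE 0.21, limma BH-adjusted p = 0.559; without ewe 255 -0.38, SE 0.19, limma BH-adjusted p = 0.934).

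MIR10A and MIR10B belong to the vessel and smooth muscle list, all 5 of whose tested members had a lower mean (median log2 fold change -0.42, against -0.05 over all 64 miRNAs). Without ewe 255 the list had 1 higher and 4 lower with a median of -0.26. MIR143, a marker of smooth muscle that acts on its contractile state, gave 8737, 7857, 11457 and 7244 in the controls and 8139, 6241, 7589 and 3561 in the prenatal T ewes. Ewe 255 was lowest by far and the other 7 overlapped (log2 fold change -0.51, SE 0.23, limma BH-adjusted p = 0.559; without ewe 255 -0.26, SE 0.15, limma BH-adjusted p = 0.934). The summed level of the list was 13361, 13128, 17111 and 11892 in the controls and 12860.4, 10879, 12456 and 6273 in the prenatal T ewes, with ewes 185 and 255 below the lowest control. The part of vessel content in these differences was not tested.

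The fibrosis and stroma list, which shares MIR143 and MIR199A with the vessel list, had 7 of 7 tested members lower (median -0.25), and 4 higher and 3 lower without ewe 255 (median 0.02). MIR199A gave 2703, 3295, 3376 and 2703 in the controls and 3059, 3161, 3127 and 1352 in the prenatal T ewes, where ewe 255 was low and the other 3 exposed ewes were among the controls (log2 fold change -0.25, SE 0.23, limma BH-adjusted p = 0.778; without ewe 255 0.05, SE 0.12, limma BH-adjusted p = 0.934). MIR21, which is raised in tissue injury and fibrosis, gave 757, 1431, 489.8 and 520.3 in the controls and 384, 529, 498 and 521 in the prenatal T ewes. Here control ewe 131 was high and ewe 255 was within the other values (log2 fold change -0.60, SE 0.28, limma BH-adjusted p = 0.559; without ewe 255 -0.64, SE 0.29, limma BH-adjusted p = 0.934). Without ewe 131 the log2 fold change was -0.27, limma BH-adjusted p = 0.835.

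Of 14 tested miRNAs linked to insulin action and glucose metabolism, none passed the test, 2 had a higher and 12 a lower mean (median -0.13). Without ewe 255 there were 6 higher and 8 lower (median -0.02). MIR103 and MIR107, which lower insulin sensitivity by targeting caveolin, followed this pattern. MIR107 gave 106 to 146 normalised reads in 7 libraries and 55.2 in ewe 255. Ewe 48 was the highest of the 8, ewe 185 was below every control but above ewe 255, and ewe 233 was among the controls (log2 fold change -0.33, SE 0.28, limma BH-adjusted p = 0.778; without ewe 255 -0.03, SE 0.17, limma BH-adjusted p = 0.95). MIR103 gave 314, 321, 322 and 268 in the controls and 373, 280.2, 302 and 171 in the prenatal T ewes, again with ewe 255 lowest (log2 fold change -0.17, SE 0.23, limma BH-adjusted p = 0.788; without ewe 255 0.05, SE 0.16, limma BH-adjusted p = 0.934). MIR29A, a repressor of collagen and of insulin signalling genes, gave 1886, 1815, 1819 and 1659 in the controls and 1764, 1742, 1947 and 949.6 in the prenatal T ewes (log2 fold change -0.22, SE 0.20, limma BH-adjusted p = 0.778; without ewe 255 0.02, SE 0.12, limma BH-adjusted p = 0.959). In 10 of the 14 members ewe 255 was the lowest of the 8 libraries.

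The let-7 family, which is high in differentiated tissue, had 4 higher and 3 lower members of 7 (median 0.03) and 2 higher and 5 lower without ewe 255 (median -0.03). The miR-30 family had 4 of 4 lower (median -0.15), with ewe 255 lowest in all 4, and 3 higher and 1 lower without her (median 0.00). MIR23A, MIR23B and MIR27A had 1 higher and 2 lower (median -0.15), and 0 higher and 3 lower without ewe 255 (median -0.06). MIR17, MIR25 and MIR106B, of clusters active in dividing cells, had 1 higher and 2 lower (median -0.05), and the same counts without ewe 255 (median -0.09). Among 9 tested miRNAs reported to respond to androgen, 2 were higher and 7 lower (median -0.05), and 4 higher and 5 lower without ewe 255 (median -0.04). None of these members passed the test.

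Markers of other cells were low or did not separate the groups. MIR150, a lymphocyte miRNA, gave 1693, 1307, 1296 and 1252 in the controls and 1690.2, 933, 839.7 and 1586 in the prenatal T ewes, which overlapped (log2 fold change -0.19, SE 0.22, limma BH-adjusted p = 0.778; without ewe 255 -0.33, SE 0.21, limma BH-adjusted p = 0.934). MIR16B, the only member of the erythroid list in the data, ran from 956 to 1239 in the controls and from 832 to 1415 in the prenatal T ewes (log2 fold change -0.03, and -0.16 without ewe 255). Whether its level follows blood content was not tested. The liver-enriched MIR148A and MIR194 summed to 950.0 to 1423 in the controls and 809.6 to 1299.9 in the prenatal T ewes (median log2 fold change -0.23; -0.24 without ewe 255). The 3 epithelial miRNAs in the data summed to 6.48 to 13.8 and 3.60 to 7.89 normalised reads, and none reached the level for testing. None of these markers was at 0 in all 8 libraries. The data held 1 of 7 listed immune cell markers, 1 of 7 erythroid, 2 of 4 liver-enriched and 3 of 9 epithelial ones. The other listed symbols were not found in the data, so few markers speak for each cell type.

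The miRNAs of the imprinted DLK1-DIO3 domain were mostly higher in prenatal T muscle, and none passed the test. This domain carries a large group of miRNAs, snoRNAs and lncRNAs expressed from the maternal chromosome, and its paternally expressed gene DLK1 affects muscle mass in sheep. Of 53 members in the data, 18 were tested, of which 16 had a higher and 2 a lower mean (median log2 fold change 0.37, against -0.05 over all 64 miRNAs). Without ewe 255, 16 of 18 were also higher, 15 of them the same miRNAs, with MIR380 now higher and MIR432 lower. The median was then 0.20, against 0.00 over all miRNAs. Ewe 255 was the highest of the 8 libraries for 13 of the 18.

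MIR127, the most abundant member, gave 1281, 1094, 1117 and 1357 normalised reads in the controls and 1170.5, 1391, 1504 and 1759.7 in the prenatal T ewes. Ewes 185, 233 and 255 were above all controls and ewe 48 was among them (log2 fold change 0.25, SE 0.16, limma BH-adjusted p = 0.778; without ewe 255 0.16, SE 0.14, limma BH-adjusted p = 0.934). MIR433 gave 4.93, 6.52, 6.89 and 6.48 in the controls and 7.36, 11.7, 11.2 and 28.9 in the prenatal T ewes, on 5 to 15 reads per library. It was higher in all 4 exposed ewes, by little in ewe 48 and most in ewe 255 (log2 fold change 0.97, SE 0.44, limma BH-adjusted p = 0.559; without ewe 255 0.61, SE 0.36, limma BH-adjusted p = 0.934). MIR485 gave 10.8, 26.9, 9.47 and 26.98 in the controls and 22.1, 20.7, 22.5 and 63.1 in the prenatal T ewes, with ewe 255 alone above the controls (log2 fold change 0.74, SE 0.45, limma BH-adjusted p = 0.778; without ewe 255 0.37, SE 0.37, limma BH-adjusted p = 0.934). MIR494 was one of the 2 with a lower mean, with 10.8, 12.2, 5.16 and 5.40 in the controls and 7.85, 5.40, 3.06 and 0 in the prenatal T ewes. Its 0 reads in ewe 255 allow a level of up to 7.89 normalised reads, so it was not detectable at this depth (log2 fold change -1.19, SE 0.63, limma BH-adjusted p = 0.651; without ewe 255 -0.53, SE 0.44, limma BH-adjusted p = 0.934).

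The members summed to 1669, 1569, 1496 and 1845 normalised reads in the controls and 1558, 1912, 2062 and 2512 in the prenatal T ewes. Ewe 48 lay within the controls and the other 3 exposed ewes above them. The lncRNA LOC105606646 lies between DLK1 and DIO3 and holds 15 of the 18 tested miRNAs of the domain, all but MIR127, MIR433 and MIR493, as well as snoRNA genes. It was looked up after the miRNA values had been seen, and whether its reads include those of the miRNAs inside it was not tested. It gave 71.5, 82.7, 78.1 and 92.8 in the controls and 52.0, 98.0, 117.4 and 176 in the prenatal T ewes, with the same order of exposed ewes as the summed miRNAs (log2 fold change 0.32, SE 0.35, limma BH-adjusted p = 0.853; without ewe 255 0.06, SE 0.28, limma BH-adjusted p = 0.975). The 1 tested snoRNA of the domain, LOC114109215, also looked up after its values were seen, gave 2.39, 3.25, 2.65 and 2.59 in the controls and 1.55, 5.40, 4.88 and 24.3 in the prenatal T ewes, high only in ewe 255 (log2 fold change 0.92, SE 0.66, limma BH-adjusted p = 0.873; without ewe 255 0.30, SE 0.51, limma BH-adjusted p = 0.989).

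**Figure D4:**
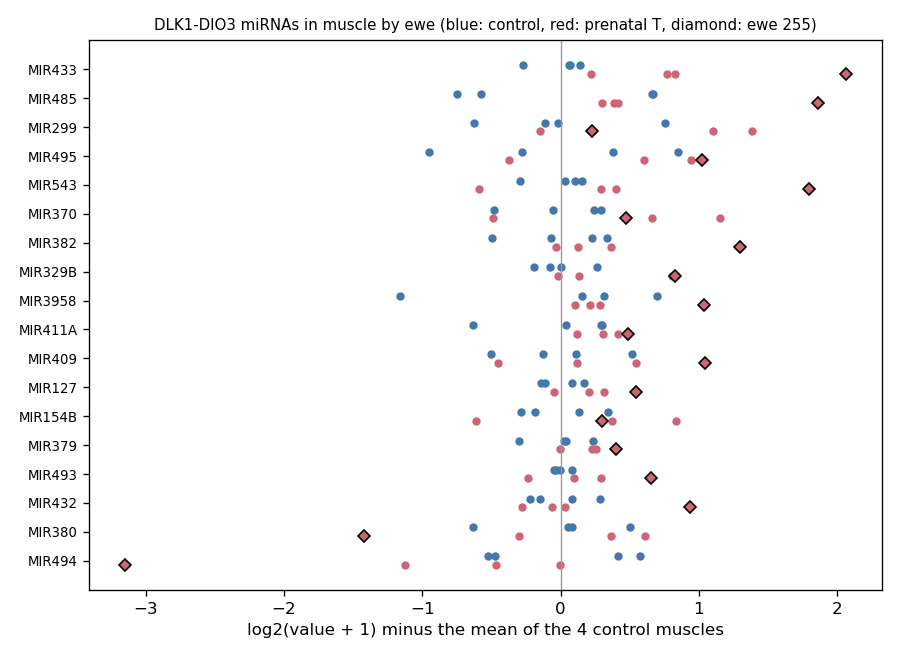
Values of the 18 tested DLK1-DIO3 miRNAs in 8 muscle libraries, as log2(value + 1) less the mean of the 4 control libraries (x axis), with 1 row per miRNA, controls in blue, prenatal T ewes in red and a diamond for ewe 255. Ewe 255 is the highest of the 8 for 13 of the 18 miRNAs and the lowest for MIR380 and MIR494.

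No snoRNA passed the test (0 of 110, or 0%, by limma with BH adjustment, and 0 by edgeR and by DESeq2). At an unadjusted p under 0.05 there were 0 by limma, 2 by edgeR and 1 by DESeq2. No snoRNA separated the groups with 8 libraries, and 4 (3.64%) did once ewe 255 was left out. Means were higher for 63 and lower for 47, with a median absolute log2 fold change of 0.34, and without ewe 255 they were higher for 56 and lower for 54. The class had only 2180 to 5766 reads in a library, which limits the precision of each member.

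LOC114117067, the most abundant snoRNA and one of those inside the lncRNA gene LOC114116957, gave 341, 323, 282 and 246 normalised reads in the controls and 422, 345, 328 and 982 in the prenatal T ewes. Ewe 255 was far above the others and ewe 48 came next (log2 fold change 0.65, SE 0.31, limma BH-adjusted p = 0.873; without ewe 255 0.29, SE 0.15, limma BH-adjusted p = 0.755). LOC114113389, inside the translation elongation factor gene EEF1B2, gave 15.1, 19.5, 23.9 and 15.5 in the controls and 22.2, 29.7, 26.9 and 30.7 in the prenatal T ewes. The exposed ewes were in the upper part of the range, and control ewe 132 overlapped them (log2 fold change 0.55, SE 0.25, limma BH-adjusted p = 0.873; without ewe 255 0.50, SE 0.27, limma BH-adjusted p = 0.861). LOC114114232, inside the ATP synthase subunit gene ATP5F1B, gave 34.2, 31.7, 38.0 and 36.3 in the controls and 40.2, 39.2, 28.1 and 385 in the prenatal T ewes. Ewe 255 alone was high (log2 fold change 0.87, SE 0.68, limma BH-adjusted p = 0.873), and without her the difference was 0.02, SE 0.23, limma BH-adjusted p = 0.989.

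By host gene, the 20 tested snoRNAs inside ribosomal protein genes had 11 higher and 9 lower means (median 0.04; 0.01 without ewe 255). The 6 inside nucleolar protein genes had 4 higher and 2 lower (median 0.39), and the median became -0.29 without ewe 255. The 8 inside translation factor genes had 6 higher and 2 lower (median 0.34; 0.20 without ewe 255), and the 13 inside lncRNA genes 9 higher and 4 lower (median 0.14; 0.03 without ewe 255). The median over all 110 was 0.06, and 0.01 without ewe 255. In the imprinted region between SNRPN and UBE3A, 31 snoRNAs were in the data and 3 were tested, all with a higher mean (median 0.54; 0.47 without ewe 255). LOC114109179 among them gave 15.1, 11.4, 7.08 and 11.7 in the controls and 15.5, 17.6, 14.7 and 19.4 in the prenatal T ewes, with ewe 98 among the exposed (log2 fold change 0.57, SE 0.30, limma BH-adjusted p = 0.873; without ewe 255 0.50, SE 0.31, limma BH-adjusted p = 0.989). The 3 had identical or near-identical values and count as 1 observation.

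**Figure D5:**
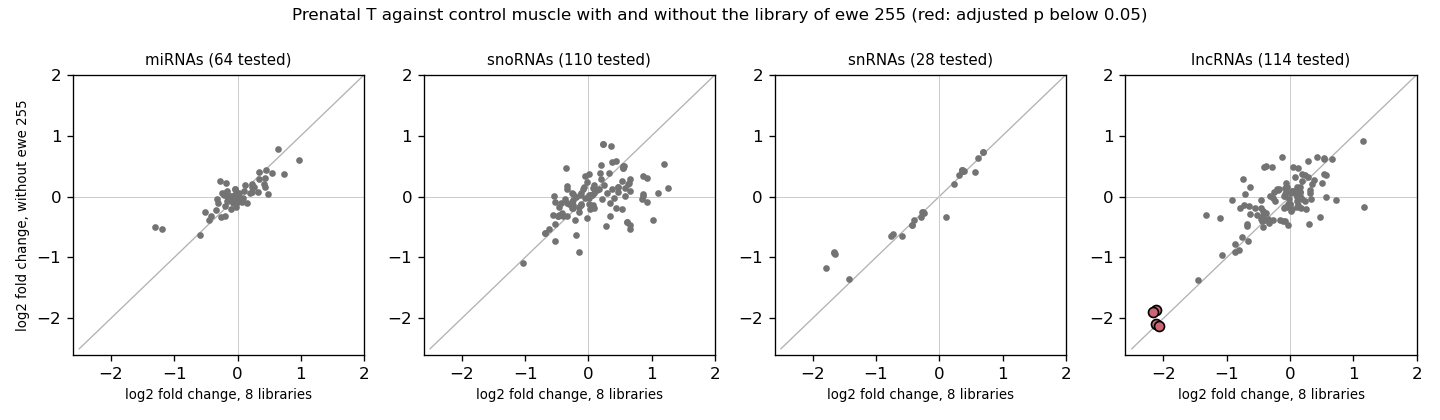
Log2 fold change of prenatal T against control muscle over 8 libraries (x axis) and without ewe 255 (y axis), 1 point per tested feature in 4 RNA classes, with the line of equal values. The 4 lncRNAs with an adjusted p below 0.05, in red, stay near the line, from -2.16 to -2.07 on the x axis and from -2.12 to -1.87 on the y axis, while many snoRNAs lie far from it.

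Liver of the same 8 ewes allowed the muscle difference to be set against the liver difference, tested as an interaction over the 16 libraries. This fit, and each fit with a library left out, took the libraries as independent and did not pair those of an ewe. It was called for 2 of 21 snRNAs (9.52%) and for 0 of 64 miRNAs, 0 of 105 snoRNAs and 0 of 82 lncRNAs by limma with BH adjustment. The 2 snRNAs were the copies at TEX14 and RAD51C. For LOC114117093 the muscle log2 fold change less the liver one was -1.69, SE 0.56, limma BH-adjusted p = 0.0394, with 25.8, 28.4, 21.0 and 17.5 normalised reads in control liver and 18.0, 35.6, 14.4 and 33.7 in prenatal T liver. For LOC114117060 it was -1.70, SE 0.57, limma BH-adjusted p = 0.0394. Without the muscle library of ewe 255, which held 1 read of each, the limma BH-adjusted p was 0.469 for LOC114117093 and 0.469 for LOC114117060. There was also no call without the muscle library of ewe 98 or 132, or without the liver library of ewe 131, 132, 201, 185 or 255.

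None of the 4 lncRNAs that fell in muscle passed this test over the 16 libraries, and 3 of them passed once the liver library of control ewe 98 was left out. That library was the only control liver with a low library number, 49, and its number and the ewe herself cannot be told apart. LOC114118460 gave 76.1, 3.82, 0 and 4.40 in control liver and 5.70, 14.9, 9.08 and 20.5 in prenatal T liver, where ewe 98 was alone at the top. Its muscle less liver difference was -2.95, SE 1.23, limma BH-adjusted p = 0.747. It was -4.13, SE 0.73, limma BH-adjusted p = 0.00324 without the liver library of ewe 98, and -3.00, limma BH-adjusted p = 0.764 without the muscle library of ewe 255. LOC114113790 gave 55.9, 39.4, 34.0 and 16.7 in control liver and 54.4, 122, 29.1 and 62.4 in prenatal T liver, which overlapped. Its difference of -2.92, SE 0.73, limma BH-adjusted p = 0.0879, was the nearest of the 4 to the threshold. With the ewe as a block the limma BH-adjusted p was 0.158 for LOC114113790 and 0.241 for LOC114112617. It was 0.569 for LOC114118460 and for LOC105607806. In the fit without a block, the limma BH-adjusted p of LOC114113790 was 0.0187 without the liver library of ewe 98 and 0.039 without that of ewe 233. It was 0.046 without the muscle library of ewe 98 and 0.216 without that of ewe 255. For LOC114112617 the difference was -2.42, SE 0.76, limma BH-adjusted p = 0.239. It was -3.00, SE 0.60, limma BH-adjusted p = 0.00585 without the liver library of ewe 98, and -2.15, limma BH-adjusted p = 0.568 without the muscle library of ewe 255. For LOC105607806 the difference was -1.75, SE 0.84, limma BH-adjusted p = 0.747, with an adjusted p of 0.78 without the muscle library of ewe 255 and of at least 0.299 with any library left out. Normalised reads of liver and muscle are on separate scales, so levels are not compared between the tissues.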

How the data were processed

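Tables of miRNAs, snoRNAs, snRNAs and lncRNAs were used for 8 muscle libraries of 8 ewes, with the 8 liver libraries of the same ewes for the comparison of tissues. The deposited tables hold signal values in which the authors had scaled the reads of each library, separately by class and tissue. The tools featureCounts 1.6.1, STAR 2.6.0c and cutadapt 3.2 are named in the submitters' processing notes, and their settings and the build were not given in the sources used here. All values above 0 (100%) were whole multiples of the worth of 1 read within 0.001 reads, which gave the recovered reads and the depths. Control and prenatal T muscle were compared with limma 3.58.1 in R 4.3.3 with its variance trend, after log2(value + 1) transformation of features whose mean over the 8 libraries was at least 5. Adjustment of p-values was by Benjamini and Hochberg, class by class. Count tests had been planned as an alternative, and edgeR 4.0.16 and DESeq2 1.42.0 were run on the recovered reads. Only the limma comparison of control and prenatal T muscle was tried on simulated reads with known changes. The simulated libraries differed by group and depth alone, and the other steps were not tried in this way.

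The muscle effect was tested against the liver effect over 16 libraries, with features at the minimum in both tissues. Liver and muscle with the same ewe number came from the same animal, so they are paired by the labels. The main fit did not use this pairing. The correlation of their deviations from the group means was -0.17 to 0.44 over miRNAs, -0.28 to 0.74 over snoRNAs, -0.89 to 0.46 over snRNAs and -0.21 to 0.59 over lncRNAs. Control and prenatal T ewes were different animals, so the muscle comparison has no pairing. Shares of reads were compared by two-sided exact permutation tests. P-values measure the spread between these ewes, with 4 per group.

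Features that could be named were those called by limma, edgeR or DESeq2, the 6 of smallest p and the 5 most abundant in each class, and the members of the miRNA lists; any other is said to be chosen after its values were seen. The members and lists were chosen with earlier results of these data known. Gene names, hosts and neighbours came from a RefSeq table of the assembly ARS-UI_Ramb_v3.0, matched by symbol for 105 of 105 miRNAs, 621 of 694 snoRNAs, 1010 of 1148 snRNAs and 1404 of 2973 lncRNAs. A few results by locus are not reported here. No coordinates are given, because the build of the files is not named. Alternatives were other pseudocounts, filters and scalings, count tests, the ewe as a block, and each library left out in turn.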

Additional observations from a re-analysis of the deposited data

Results flagged for a closer look

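For named features, the highest or lowest ewe of a group of 4 was compared with the others by the gap to its neighbour over the range of the group, and a share above Dixon's critical value for 4 samples was taken as apart. This was so for 18 of 180 groups looked at, and the rule marks about 1 group in 20 by chance. Ewe 255 accounted for 7 of the 18: MIR29A (0.845), MIR30B (0.849), MIR152 (0.895), MIR199A (0.961) and MIR485 (0.928), the snoRNA LOC114114232 (0.865) and the snoRNA share of reads (0.930). She was low in the first 4 and high in the last 3.

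Prenatal T ewe 185 was apart in 3 snRNAs of near-identical values, LOC114117115 (0.904), LOC114117117 (0.933) and LOC114117120 (0.933), and was the high value in each. Prenatal T ewe 48 was apart in MIR10A (0.887), where she was the high value. Among controls, ewe 131 was apart in MIR26B (0.954) and in MIR29B-1 and MIR29B-2 (0.838 each), ewe 98 in MIR150 (0.857) and ewe 201 in MIR103 (0.871). Control ewe 132 was apart in the snRNA LOC114111395 (0.908) and the lncRNA LOC105611269, which holds MIR181A-2 (0.941).

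The muscle effect differed from the liver effect in the interaction test for LOC114117093 (-1.69, limma BH-adjusted p = 0.0394) and LOC114117060 (-1.70, limma BH-adjusted p = 0.0394), both without a call once the muscle library of ewe 255 was left out.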

How the results depend on the processing

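The 4 lncRNA calls were 1 without the variance trend, 0 with 1 spread over 16 libraries and 1 to 4 with a library left out. With no filter 4 snRNAs were called, where the filtered test called 0. They were LOC114109164 and LOC114109197, high in control ewe 98 alone, and LOC114117060 and LOC114117093, with 1 read each in ewe 255. The muscle against liver difference called 0 snRNAs with a minimum of 20 or with the minimum in either tissue, also with the replicate block; the either-tissue settings were chosen after seeing the data. It called 0 to 2 snRNAs and 0 to 3 lncRNAs with a library left out, 3 without the liver library of control ewe 98. In the paired fit with the replicate block and the main filter 2 snRNAs were called, and the block changed no call. The snoRNA share difference, 0.216 points, ran from -0.0708 without ewe 255 to 0.3235 with another library left out. Among list medians, several turned sign without ewe 255: snoRNAs in nucleolar protein genes to -0.29, lncRNAs that hold a snoRNA gene to -0.22 and the fibrosis and stroma miRNAs to 0.02. The median of MIR23A, MIR23B and MIR27A moved from -0.15 to -0.061 without ewe 255, inside the range of its members (-0.35 to 0.01). That of the snRNAs near TEX14 and RAD51C moved from -1.65 to -0.93. Scaling to the reads of the 4 classes moved all snRNAs to -0.56 and those next to HJV to -0.71. Leaving out control ewe 132 moved the median over all snRNAs from -0.25 to -0.03. The causes were not tested. Of the values of single features under an alternative, 396 kept direction and side of the threshold, 24 lost the call, 4 gained it and 0 reversed. All 24 losses were in the 4 called lncRNAs, since no other feature had a call to lose. Depth limits ewe 255 most, with 200 snRNA reads, and the 4 ewes per group limit every test.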

Other observations

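Control ewe 98 held a level of 3 snRNAs that no other muscle library approached, a feature chosen after its values were seen. LOC114109164 gave 89.3 normalised reads in ewe 98, 4.54 to 9.78 in the other controls and 0 to 9.25 in the prenatal T ewes. LOC114109197 gave 88.1 in ewe 98, 2.72 to 8.56 in the other controls and 0 to 6.73 in the prenatal T ewes. The 0 values are those of ewe 255, in whom 3 reads would be 9.58 normalised reads. Their log2 fold changes, -1.67 (SE 0.96) and -1.79 (SE 1.02), were among the largest of the class and did not pass the test (limma BH-adjusted p = 0.167 for both). Both were among the 4 snRNAs called with no filter.

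Ewe 255 also held snoRNA levels far above the other libraries, and the 1 named here was chosen after its values were seen. LOC114118129, inside the splicing factor gene SF3B3, gave 228 normalised reads in ewe 255 and 6.10 to 13.5 in the other 7. Over the class, 27 snoRNAs were more than 2 times the next library in ewe 255, and 0 were so in any other muscle library.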
